A study of Mus musculus with 8 samples.

Results

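The comparison concerns fibroadipogenic progenitors from mice whose pancreatic tumour cells had miR-27a-3p inhibited, set against the same progenitors from mice whose tumour cells carried a scrambled sequence. There were 3 knockdown and 3 scrambled libraries, each called a biological replicate in the labels, and 2 sham libraries stand beside them. Its members are the gene symbols with at least 10 reads in 3 or more of the 6 tumour libraries, 13231 of the 24419 symbols in the deposited count table. All mice were male C57BL/6J, and the labels give no age, time after implantation, sorting day or library batch. The tumour groups received 2000000 KPCY cells in 50 µL in the pancreas, and the sham group had sham surgery. KPCY is a mouse pancreatic cancer cell line. Each tumour line was made with a lentiviral vector and kept as the cells resistant to 7 days in 2 µg/mL of puromycin, so both tumour groups share transduction and selection, and the sham mice received no tumour cells. The labels do not say whether a line is 1 clone. The inhibitor was in the implanted cells and not in the sorted progenitors. The cells were sorted from hindlimb muscle as SCA-1+ and Hoechst 33342+ cells that were CD31-, CD45-, α7-integrin- and negative for propidium iodide. Libraries were made from polyadenylated RNA and sequenced as paired reads of 59 bases.

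At the threshold of the member rule, 423 symbols had 10 reads in exactly 3 libraries and a median of 9.5 reads over the 6. Just outside it, 479 symbols had 10 reads in exactly 2 libraries and a median of 6 reads. The threshold matters for few members, since 11730 (88.7%) had 10 reads in all 6 libraries. For 110 members the libraries with 10 reads were all of 1 group. Of the 13231 members, 13204 also passed edgeR's filter on low counts and were tested, and 27 did not.

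Fibroadipogenic progenitors are mesenchymal cells that lie between muscle fibres. They lay down collagen and other matrix, feed signals to muscle stem cells, and can turn into fibroblasts or adipocytes in diseased muscle. In cachexia, the wasting that accompanies many pancreatic cancers, muscle and its stroma are exposed to inflammatory cytokines, glucocorticoids and a poor nutrient supply. A microRNA binds the 3′ end of target messenger RNAs mainly through its seed, and lowers their stability and translation. Tumour cells can also release microRNAs, and miR-27a has been studied mostly in lipid metabolism and cancer.

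The microRNA that the vector inhibits in the tumour cells is shown with the microRNA that shares its seed. Both mature sequences are from RefSeq (GRCm38.p6), with the seed, bases 2 to 8, in capitals.
mmu-miR-27a-3p: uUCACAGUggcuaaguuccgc
mmu-miR-27b-3p: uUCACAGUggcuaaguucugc
Of 1738 mature mouse microRNAs in the table, only these 2 carry that seed. Counted from 1 at the 5′ end of miR-27a-3p, they differ by C19U. The miR-27a-3p sequence lies on chromosome 8 from 84208727 to 84208747 on the + strand and miR-27b-3p on chromosome 13 from 63300760 to 63300780 on the + strand. Libraries of polyadenylated RNA do not measure a mature microRNA, and they hold the progenitors' RNA and not the tumour cells', so they cannot check the knockdown. The precursor gene Mir27a had 12, 12 and 3 reads in scrambled libraries 1, 2 and 3 and 0 reads in each knockdown and sham library, too few for the member rule. Mir27b had 0 reads in every library.

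Throughout, 3 values for a group are in the order of libraries 1, 2 and 3, and CPM is the read count scaled to a common library total after TMM, a correction for differences in library composition. Total counts ran from 15647436 to 28340450 reads per library. The sorted cells carried progenitor genes: Pdgfra, a receptor of platelet-derived growth factor that marks this cell type, stood at 1576, 1586 and 1519 CPM in the scrambled and 1477, 1449 and 1467 CPM in the knockdown libraries. Ly6a, which encodes the SCA-1 of the sort, stood at 451, 1136 and 436 CPM in the scrambled and 1110.1, 1175 and 1033 CPM in the knockdown libraries. Genes of the cells sorted away were low, with Pecam1 (CD31) at 35.0 to 73.0 CPM, Itga7 (α7-integrin) at 4.003 to 11.5 CPM and Ptprc (CD45) at 0.0558 to 2.51 CPM over the 6 tumour libraries. Ly6a was low in scrambled libraries 1 and 3, although the sort selected for its protein. None of these 5 genes passed the test between the groups (edgeR quasi-likelihood, Benjamini-Hochberg adjusted p from 0.184 to 0.715). Without scrambled library 2, described next, Ly6a was higher in the knockdown libraries (adjusted p = 1.69e-05) and Pecam1 lower (adjusted p = 0.0231).

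One library stood apart from its label. On the first principal component of the 6 tumour libraries, which held 68.3% of the variance, scrambled libraries 1 and 3 scored 95.8 and 77.1, and scrambled library 2 scored -26.6. The knockdown libraries scored -46.3, -55.4 and -44.7, so scrambled library 2 lay on their side. Pearson's r of log2 CPM across members, which are not independent replicates, was 0.976, 0.954 and 0.977 between scrambled library 2 and knockdown libraries 1, 2 and 3. It was 0.898 and 0.921 between scrambled library 2 and scrambled libraries 1 and 3. The scrambled group was wide: the median SD of log2 CPM over members was 0.435 among the 3 scrambled libraries and 0.151 among the 3 knockdown libraries. Results below are given with all libraries and without scrambled library 2, which was left out after its position had been seen; the sources used here give no reason to leave it out.

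**Figure D1:**
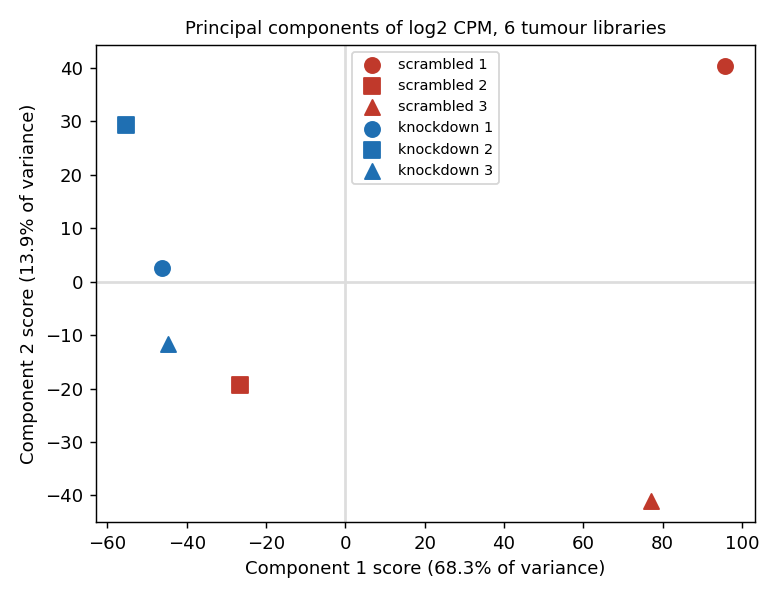
Scores of the 3 scrambled (red) and 3 knockdown (blue) libraries on the first (horizontal, 68.3% of the variance) and second (vertical, 13.9%) principal components of log2 CPM over members, with the marker shape giving the library number. Scrambled library 2 lies at -26.6 on the first component, near the knockdown libraries at -55.4 to -44.7, and scrambled libraries 1 and 3 lie at 95.8 and 77.1.

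With all libraries in the fit, 7 members passed the threshold of 0.05 in edgeR's quasi-likelihood test, 0.053% of the 13204 tested. Il18r1 rose in the knockdown libraries (0.00757%), and Serpina3n, Serpina3m, Agt, Adm, C4b and Rasa3 fell (0.0454%). They encode a cytokine receptor subunit, secreted protease inhibitors, the precursor of angiotensin, a vasodilator peptide, a complement component and an inhibitor of Ras. In each of the 7 the knockdown mean lay between the sham and the scrambled mean. In all, 4288 tested members had an unadjusted p under 0.05 and only these 7 passed after adjustment.

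Serpina3n, a secreted inhibitor of serine proteases that is released in inflammation, stood at 2132, 1422 and 1382 CPM in the scrambled libraries, 365, 254 and 269 CPM in the knockdown libraries and 76.2 and 76.4 CPM in the sham libraries. Every scrambled library lay above every knockdown library, scrambled library 2 included. The log2 change was -2.47 ± 0.24 (SE; edgeR adjusted p = 0.0357), and -2.58 ± 0.20 without scrambled library 2 (adjusted p = 2.16e-06). Its neighbour Serpina3m, a close copy in the same gene cluster, stood at 41.3, 31.9 and 24.7 CPM in the scrambled and 6.93, 3.80 and 5.16 CPM in the knockdown libraries. The sham libraries held 1.01 and 1.00 CPM. Serpina3m fell by 2.62 ± 0.29 on the log2 scale (edgeR adjusted p = 0.0487), and its change was -2.66 ± 0.27 without scrambled library 2 (adjusted p = 1.33e-05). Reads can be shared between these copies, and their separate values are uncertain. Of the 11 SERPINA3 genes of the list, 4 were tested, and the other two, Serpina3c at 108, 84.5 and 53.4 CPM in the scrambled and 49.8, 49.4 and 50.7 CPM in the knockdown libraries and Serpina3h at 5.17, 1.82 and 0.819 CPM in the scrambled and 3.08, 2.79 and 0.394 CPM in the knockdown libraries, did not pass (edgeR adjusted p = 0.0990 and 0.676; 0.0344 and 0.381 without scrambled library 2). Serpina3m and Serpina3n are protein coding genes on the + strand of chromosome 12 (GRCm38, the build called mm10). Serpina3m spans 104338486 to 104394257. Serpina3n spans 104406729 to 104414329.

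C4b encodes a component of the classical complement pathway. It stood at 3477, 4208 and 4267 CPM in the scrambled libraries, 1514, 1319.8 and 1466 CPM in the knockdown libraries and 279.9 and 324 CPM in the sham libraries. Scrambled library 2 lay above scrambled library 1 here, and the knockdown libraries lay together below all 3. C4b fell by 1.47 ± 0.19 on the log2 scale (edgeR adjusted p = 0.0491), with a change of -1.44 ± 0.16 without scrambled library 2 (adjusted p = 1.94e-05). Its near copy C4a, with which it can share reads, stood at 3.45, 2.32 and 3.65 CPM in the scrambled and 0.975, 1.23 and 1.05 CPM in the knockdown libraries and did not pass (adjusted p = 0.0737). C4b lies on chromosome 17 from 34728380 to 34743882 on the - strand.

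Agt encodes angiotensinogen, the substrate from which renin releases angiotensin. It stood at 103, 81.2 and 81.4 CPM in the scrambled libraries, 25.4, 29.8 and 21.9 CPM in the knockdown libraries and 3.04 and 5.30 CPM in the sham libraries. Agt fell by 1.79 ± 0.21 on the log2 scale (edgeR adjusted p = 0.0491), and its change was -1.86 ± 0.18 without scrambled library 2 (adjusted p = 9.60e-06). Adm encodes adrenomedullin, a vasodilator peptide also induced by low oxygen, and stood at 1579, 668 and 1328 CPM in the scrambled libraries, 212, 137 and 203 CPM in the knockdown libraries and 92.0 and 85.7 CPM in the sham libraries. Scrambled library 2 held the lowest scrambled value, still above every knockdown library. Adm fell by 2.69 ± 0.33 on the log2 scale (edgeR adjusted p = 0.0491), and its change was -2.99 ± 0.19 without scrambled library 2 (adjusted p = 4.90e-07). Agt lies on chromosome 8 from 124556534 to 124569706 on the - strand and Adm on chromosome 7 from 110627661 to 110629820 on the + strand.

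Rasa3, which encodes a GTPase-activating protein that switches off Ras and Rap1, stood at 838, 370.1 and 919 CPM in the scrambled libraries, 124, 105 and 120.4 CPM in the knockdown libraries and 74.1 and 106 CPM in the sham libraries. It fell by 2.61 ± 0.33 on the log2 scale (edgeR adjusted p = 0.0491), and its change was -2.92 ± 0.16 without scrambled library 2 (adjusted p = 2.98e-07). As with Adm, scrambled library 2 was the lowest of the scrambled libraries and lay above all knockdown libraries. Il18r1, the ligand-binding subunit of the interleukin-18 receptor, went the other way, from 0.353, 0.592 and 0.252 CPM in the scrambled libraries to 3.75, 5.25 and 5.07 CPM in the knockdown libraries, beside 8.29 and 5.52 CPM in the sham libraries. Il18r1 rose by 3.49 ± 0.45 on the log2 scale (edgeR adjusted p = 0.0491), and by 3.87 ± 0.55 without scrambled library 2 (adjusted p = 1.18e-04). The groups did not overlap, and the gene was below 1 CPM in every scrambled library. Rasa3 lies on chromosome 8 from 13566948 to 13677603 on the - strand and Il18r1 on chromosome 1 from 40465552 to 40500854 on the + strand.

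**Figure D2:**
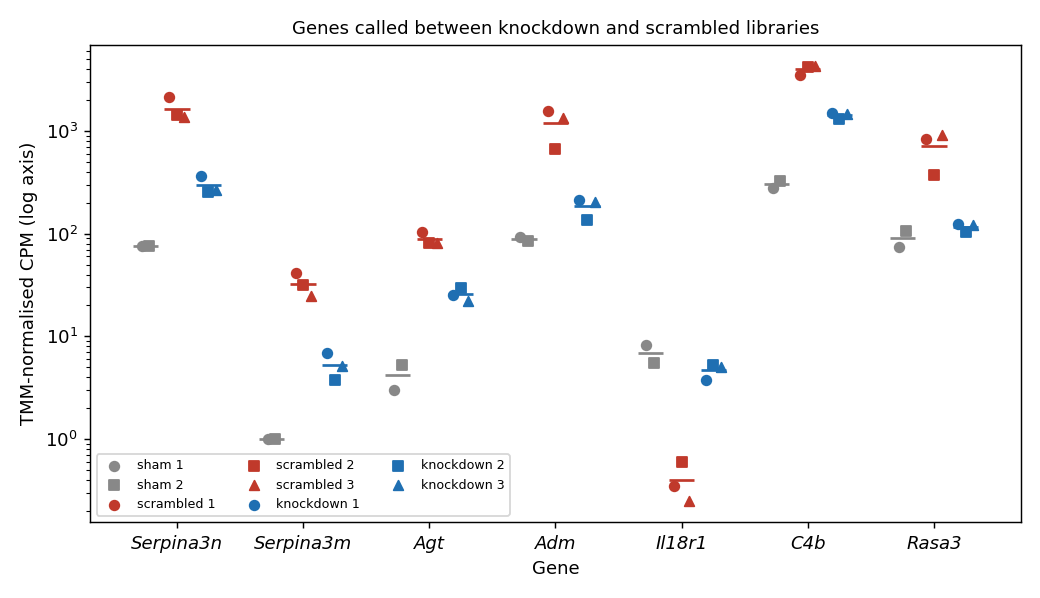
Level of the 7 called genes in each library as TMM-normalised CPM on a log axis, with sham libraries in grey, scrambled in red and knockdown in blue, the marker shape giving the library number and a bar the group mean. In each gene the 3 knockdown libraries lie apart from the 3 scrambled libraries, as for C4b at 1319.8 to 1514 CPM against 3477 to 4267 CPM.

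The region before the start of the called genes is shown for 2 that fell and held a motif of the 7 searched, from RefSeq's promoter windows (GRCm38.p6), with the motif in capitals. The 250 bases before the start of Serpina3n, at chr12:104406458-104406707 on the + strand, hold 1 match to the glucocorticoid response element, which begins 78 bases before the start. Those before Agt, at chr8:124569707-124569956 on the - strand, hold 1 match to the STAT element (TTCNNNGAA), which begins 172 bases before the start.
Serpina3n: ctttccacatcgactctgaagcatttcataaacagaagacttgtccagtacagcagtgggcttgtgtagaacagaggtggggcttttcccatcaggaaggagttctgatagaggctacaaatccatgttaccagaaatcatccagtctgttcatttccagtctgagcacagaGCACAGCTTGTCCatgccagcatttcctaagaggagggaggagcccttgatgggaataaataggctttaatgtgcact
Agt: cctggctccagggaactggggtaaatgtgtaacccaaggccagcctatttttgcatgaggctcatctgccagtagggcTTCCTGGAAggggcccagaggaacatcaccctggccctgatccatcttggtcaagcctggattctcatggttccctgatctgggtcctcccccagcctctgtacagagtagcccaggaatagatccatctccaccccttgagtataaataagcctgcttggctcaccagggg
Each is written 5′ to 3′ on the strand of its gene. Both strands were searched, and 0.387% of the table's 32851 promoters held the glucocorticoid response element and 7.02% the STAT element. The promoters of Adm and Rasa3 held none of the 7 motifs, which were those 2 and C/EBP (TTGCNNAA, in 9.56% of all promoters), NF-kappa-B (0.356%), AP-1 (TGANTCA, 6.75%), D-box (TTATGTAA, 0.819%) and E-box (CACGTG, 6.02%). Of 3 promoters of Il18r1, the most downstream held 2 matches to the STAT element. Serpina3m and C4b had no promoter in the table. A match is a description of these letters and not evidence that a factor binds.

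How many members could be called turned on scrambled library 2. Without it, edgeR called 3672 members higher and 3525 lower in the knockdown libraries, 27.8% and 26.7% of the 13188 tested, and all 7 of the genes above were among them. Of these, 791 were at least 4-fold higher and 385 at least 4-fold lower. Leaving out another library gave 4 edgeR calls without scrambled library 3, 1 without scrambled library 1, and 0 without either sham or any knockdown library, with 2617 to 3636 members at an unadjusted p under 0.05 in those with 0. DESeq2 on all 8 libraries called 782 members higher and 1505 lower (5.92% and 11.4%). Scrambled library 2 had no part in the 7197 calls made without it. For 6355 of them (88.3%) its level lay nearer to the knockdown mean than to the mean of scrambled libraries 1 and 3. The library was left out after its position over all members had been seen. The share therefore largely restates that position and is no separate check on these 7197 members. If the knockdown mean is set at 0% and the mean of scrambled libraries 1 and 3 at 100%, scrambled library 2 lay at a median of 14.0% for these members, with quartiles of -3.18% and 32.4%. On that scale it lay at 109% for C4b, 99.9% for Serpina3m, 90.7% for Agt, 89.4% for Serpina3n, 77.8% for Il18r1, 62.8% for Adm and 57.3% for Rasa3. Scrambled library 2 was on the scrambled side for the 7 genes called with it in the fit, which is part of what a call with it requires.

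**Figure D3:**
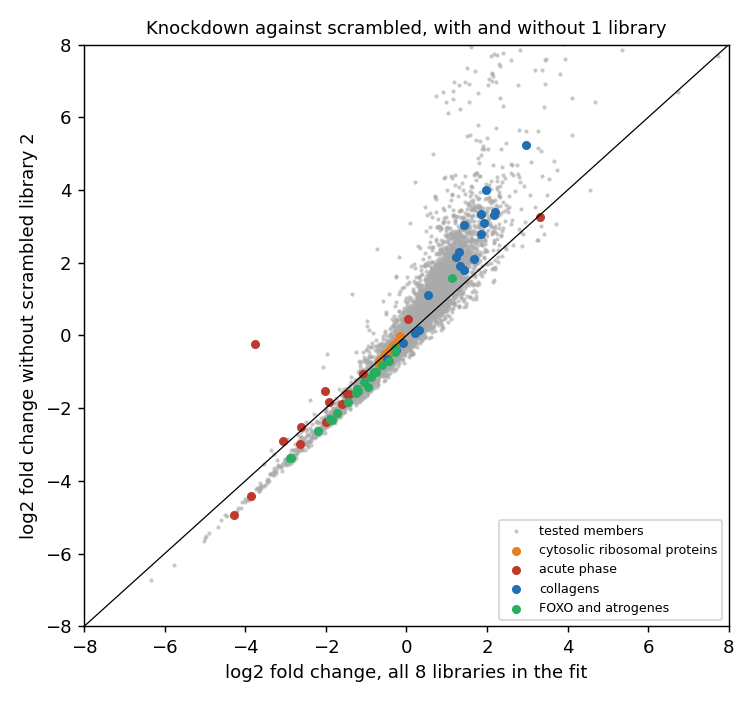
Log2 fold change of knockdown against scrambled for each tested member with all 8 libraries in the fit (horizontal) and without scrambled library 2 (vertical), both axes limited to 8 either way with 18 of 13188 points outside, and 4 gene lists coloured. Collagens lie above the diagonal, with a median of 1.43 against 2.14 without the library, and cytosolic ribosomal protein genes lie close to it, at -0.52 against -0.51.

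With all libraries in the fit, a further measure was whether the 3 knockdown libraries lay wholly above or wholly below the 3 scrambled libraries. This held for 2334 tested members above (17.7%) and 2245 below (17%), of which 163 and 180 were at least 4-fold apart by log2 fold change. Lists of genes are described below by how many members lay apart in this way and by their median log2 change, beside a median of 0.02 over all 13204 tested members. The counts called without scrambled library 2 stand beside them, to be read against 27.8% and 26.7% of all members. Most genes named from a list were its members with the smallest p. That such genes passed without scrambled library 2 was therefore likely beforehand and is no separate support.

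The families of the called genes held members on both sides. Among 23 tested complement genes, 1 lay higher and 4 lower, with a median of -0.13, and without scrambled library 2 the calls were 4 higher and 6 lower. Beside C4b and C4a, Masp1, a protease of the lectin pathway, lay lower, at 10.4, 9.09 and 12.7 CPM in the scrambled and 3.34, 2.34 and 2.27 CPM in the knockdown libraries. C3, the central component (named after its values were seen), stood at 10571, 21546 and 6419.9 CPM in the scrambled and 13799, 12464 and 14090 CPM in the knockdown libraries, and scrambled library 2 was the highest of all. In the angiotensin system, 1 of 10 tested members lay higher and 2 lower, Agt and Agtrap, with 5 higher and 2 lower called without scrambled library 2. Agtrap, a binding protein of the angiotensin receptor, stood at 139.9, 123 and 131 CPM in the scrambled and 111, 109 and 106 CPM in the knockdown libraries. The receptor gene Agtr1a stood at 36.2, 80.8 and 59.9 CPM in the scrambled and 83.9, 66.9 and 85.9 CPM in the knockdown libraries. The converting enzyme gene Ace stood at 1621, 2775 and 933 CPM in the scrambled and 3124, 2679 and 3206 CPM in the knockdown libraries, and both overlapped between the groups. Enpep, which degrades angiotensin, lay higher, at 21.4, 102 and 37.2 CPM in the scrambled and 119, 128 and 111 CPM in the knockdown libraries. Except C4b and Agt, none of these passed with all libraries (edgeR adjusted p from 0.0610 to 0.914), and all did without scrambled library 2 (adjusted p from 1.21e-05 to 0.0309). The angiotensin genes Lnpep, Mme and Atp6ap2, not described above, passed in neither fit (edgeR adjusted p = 0.313, 0.927 and 0.505 without scrambled library 2).

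Adrenomedullin signals through Calcrl paired with a Ramp protein. Calcrl stood at 37.6, 45.2 and 34.6 CPM in the scrambled and 77.4, 83.8 and 81.1 CPM in the knockdown libraries, with no overlap and a log2 change of 1.04 ± 0.17 (edgeR adjusted p = 0.0610; 5.72e-05 without scrambled library 2). Ackr3, a decoy receptor for the peptide, also lay higher (564, 757 and 421 CPM in the scrambled and 861, 875 and 926 CPM in the knockdown libraries), and Ramp1 and Ramp2 overlapped, with log2 changes of 0.46 and 0.20. Of 5 tested genes of the adrenomedullin system 2 lay higher and 1 lower, with 4 higher and 1 lower called without scrambled library 2. In the family of IL-1 and IL-18 receptors 5 of 16 tested members lay higher and 2 lower, with 5 higher and 2 lower called without scrambled library 2. Il18 itself stood at 3.80, 12.2 and 5.98 CPM in the scrambled and 21.1, 24.1 and 19.0 CPM in the knockdown libraries, so the cytokine and Il18r1 both had their higher values in the knockdown libraries. The adaptor Myd88, on which both receptors depend, lay lower at 156, 108 and 129 CPM in the scrambled and 74.4, 89.9 and 82.1 CPM in the knockdown libraries, as did its inhibitor Irak3 at 238, 159 and 199.8 CPM in the scrambled and 121, 129 and 131 CPM in the knockdown libraries. None of these 5 genes passed with all libraries (adjusted p from 0.0610 to 0.110), and all 5 passed without scrambled library 2 (adjusted p from 2.08e-05 to 0.00103).

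Among 14 Ras regulators tested, 6 lay higher and 2 lower, with a median of 0.02 and 5 higher and 4 lower called without scrambled library 2. Iqgap1, a scaffold of the actin cortex, stood at 168, 248 and 201 CPM in the scrambled and 264, 289 and 303 CPM in the knockdown libraries. It did not pass (edgeR adjusted p = 0.113; 0.00213 without scrambled library 2). Among 11 serpins outside the SERPINA3 cluster, 5 lay higher and 1 lower (median 0.68; 6 higher and 1 lower called without scrambled library 2). Serpinh1, the collagen chaperone of the endoplasmic reticulum, stood at 125, 990.05 and 171 CPM in the scrambled and 1269, 1904 and 1149 CPM in the knockdown libraries, and Serpinb1a, an intracellular inhibitor of neutrophil proteases, stood at 0.627, 20.2 and 0.756 CPM in the scrambled and 32.4, 29.6 and 26.6 CPM in the knockdown libraries. In both, scrambled library 2 lay far above the other scrambled libraries, and both passed without it and not with it (edgeR adjusted p = 0.131 and 0.165 with it, 5.69e-05 and 1.95e-07 without).

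Among members of at least moderate level, the genes with the largest log2 changes were not among the 7. The ranking took members with a mean of at least 5 CPM whose groups lay apart, and left out symbols of clones and predicted genes. In it, the 12 with the largest negative log2 change were Igfbp3, Cdo1, Sphk1, Chchd10, Pdk4, Sox4, Mmp11, Coro6, Tmod1, Cecr2, Frat2 and Galnt15. They ran from -3.15 to -5.00. Igfbp3, a carrier of insulin-like growth factors in blood and tissue, stood at 14743, 552 and 12088 CPM in the scrambled and 283, 263 and 311 CPM in the knockdown libraries. Scrambled libraries 1 and 3 lay far above scrambled library 2, which was close to the knockdown libraries and still above them. Pdk4, a kinase that inhibits pyruvate dehydrogenase in fasting, followed the same order, at 519.9, 48.0 and 642 CPM in the scrambled and 27.3, 23.4 and 28.7 CPM in the knockdown libraries. Cdo1, which breaks down cysteine, stood at 87.7, 6.93 and 93.7 CPM in the scrambled and 3.13, 1.62 and 1.53 CPM in the knockdown libraries. Sphk1, which makes sphingosine 1-phosphate, stood at 74.4, 5.28 and 35.0 CPM in the scrambled and 2.31, 2.57 and 1.49 CPM in the knockdown libraries.

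Mmp11, a matrix metalloproteinase of tumour stroma, was less even, at 284, 231 and 1012 CPM in the scrambled and 56.6, 41.5 and 57.0 CPM in the knockdown libraries, with scrambled library 2 near scrambled library 1. Sox4, a transcription factor of developing and tumour tissue, stood at 186, 36.8 and 547 CPM in the scrambled and 17.9, 26.0 and 17.5 CPM in the knockdown libraries, with scrambled library 3 the highest and scrambled library 2 near the knockdown libraries. Galnt15, a glycosyltransferase, stood at 1394, 437 and 2473 CPM in the scrambled and 205, 117 and 163 CPM in the knockdown libraries. None of the 12 passed with all libraries (edgeR adjusted p from 0.0610 to 0.0697). All 12 passed without scrambled library 2, with log2 changes from -5.56 to -3.58. In 11 of the 12, scrambled library 2 lay nearer to the knockdown mean than to the mean of scrambled libraries 1 and 3 on the log2 scale.

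The 12 with the largest positive log2 change were Chad, Stmn4, Adamts16, Fam167a, Col15a1, Fgf1, Sqle, Cilp2, Lgi3, Thy1, Ifi27l2a and Xpnpep2, from 2.65 to 3.54. Col15a1, a collagen of basement membranes, stood at 31.5, 364 and 26.4 CPM in the scrambled and 927, 1403 and 957 CPM in the knockdown libraries. Thy1, the surface protein CD90 of fibroblasts, stood at 20.3, 138 and 6.86 CPM in the scrambled and 347, 460.3 and 303 CPM in the knockdown libraries. Stmn4, a regulator of microtubules, stood at 1.76, 18.4 and 0.819 CPM in the scrambled and 60.4, 71.8 and 75.01 CPM in the knockdown libraries. In these 3, scrambled library 2 was intermediate: above the other scrambled libraries and below every knockdown library. Fgf1, an acidic fibroblast growth factor, showed the same order at 2.39, 10.9 and 2.08 CPM in the scrambled and 35.4, 47.6 and 35.5 CPM in the knockdown libraries. Sqle, which commits squalene to cholesterol synthesis, did not: it stood at 5.45, 5.54 and 5.29 CPM in the scrambled and 26.0, 67.2 and 24.4 CPM in the knockdown libraries, so the 3 scrambled libraries were alike and knockdown library 2 was the highest. Chad and Cilp2, cartilage and tendon matrix genes, varied among knockdown libraries, with Chad at 2.94, 6.42 and 0.756 CPM in the scrambled and 72.8, 16.2 and 33.8 CPM in the knockdown libraries and Cilp2 at 2.90, 2.62 and 0.567 CPM in the scrambled and 28.6, 4.19 and 12.03 CPM in the knockdown libraries.

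None of these 12 passed with all libraries (edgeR adjusted p from 0.0610 to 0.0898), and 10 of 12 passed without scrambled library 2. The exceptions were Chad and Cilp2 (adjusted p = 0.0510 and 0.101). Both belong to the list of tenocyte markers, of which 4 of 10 lay higher and 0 lower. That list summed to 784, 949 and 685 CPM in the scrambled, 1569.9, 743 and 1000.4 CPM in the knockdown and 749.9 and 1276 CPM in the sham libraries, and none of its 10 members was at 0. Knockdown library 1 held the largest sum, knockdown library 2 lay within the scrambled range, and the part of tendon cells in these differences was not tested. In bulk RNA, fewer cells of a type and less RNA per cell cannot be told apart.

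**Figure D4:**
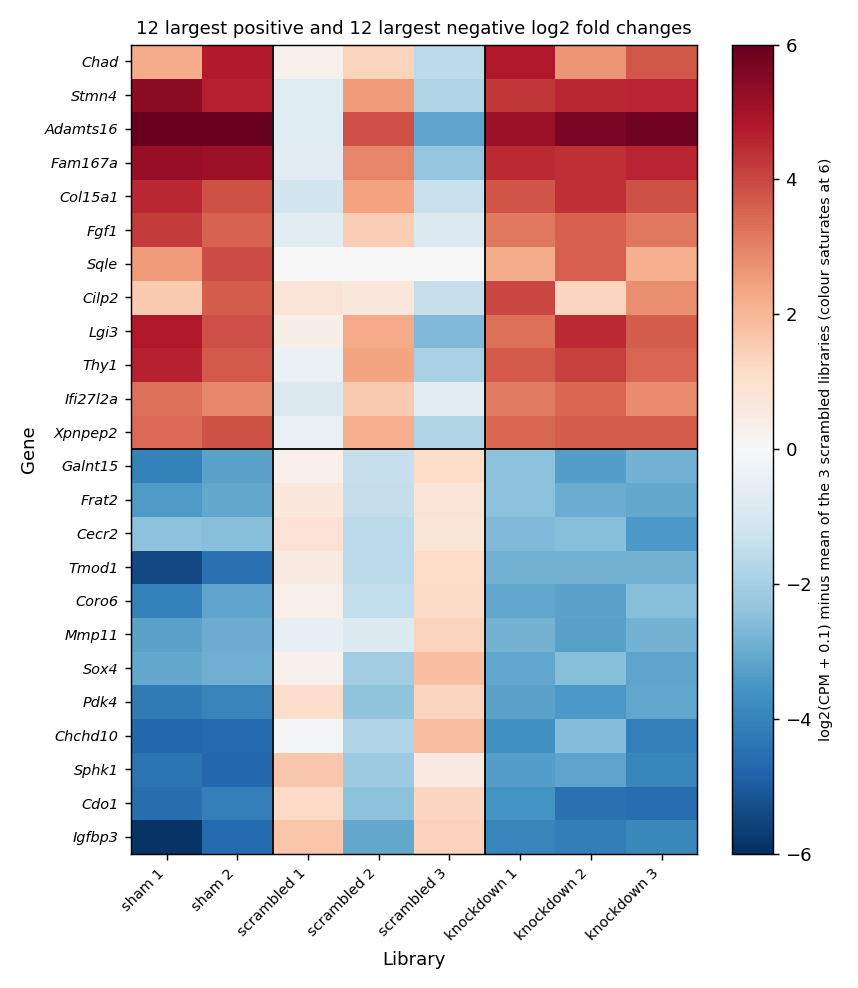
Log2(CPM + 0.1) minus the mean of the 3 scrambled libraries, in colour (red above, blue below, saturating at 6), for the 12 largest positive (top) and 12 largest negative (bottom) log2 changes of the ranking in the text, in each of the 8 libraries. Scrambled library 2 lies nearer to the knockdown mean in 9 of the upper 12 genes, not for Sqle, and in 11 of the lower 12; the knockdown mean lies between the sham and scrambled means in 9 and 11.

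Acute phase proteins are secreted by liver and stroma under inflammatory cytokines, chiefly IL-6 acting through STAT3. Of 15 tested acute phase genes 10 lay lower and 1 higher in the knockdown libraries, with a median log2 change of -2.01. Cp, the copper carrier ceruloplasmin, stood at 974, 592 and 838 CPM in the scrambled and 331, 268 and 302 CPM in the knockdown libraries, beside 163 and 186 CPM in the sham libraries. Lbp, which presents bacterial lipopolysaccharide, stood at 1216, 1105 and 952 CPM in the scrambled and 530.2, 498 and 525 CPM in the knockdown libraries. Lcn2, the iron-trapping lipocalin, stood at 23.7, 49.0 and 20.5 CPM in the scrambled and 8.67, 4.69 and 9.40 CPM in the knockdown libraries. Saa1, a serum amyloid A, stood at 9.80, 10.6 and 3.97 CPM in the scrambled and 1.33, 1.45 and 0.262 CPM in the knockdown libraries. In all 4 the groups lay apart; scrambled library 2 was the lowest scrambled library for Cp and the highest for Lcn2 and Saa1. Their log2 changes were -1.42 ± 0.21, -1.08 ± 0.16, -2.03 ± 0.43 and -3.07 ± 0.54, in that order, and none passed with all libraries (edgeR adjusted p from 0.0610 to 0.0685). Without scrambled library 2 all 4 passed (adjusted p from 4.97e-06 to 8.09e-04), and of the whole list 2 rose and 12 fell, with a median of -1.84. Without scrambled library 1 the median was -1.28.

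The list was not uniform. A2m (named as its largest rise) had a log2 change of 3.31 and did not pass with all libraries. Saa3, another serum amyloid A chosen here after its values were seen, stood at 0.392, 24.0 and 1.32 CPM in the scrambled and 0.616, 0.112 and 1.09 CPM in the knockdown libraries, high in scrambled library 2 alone. Steap4, a metalloreductase, stood at 519, 889 and 375 CPM in the scrambled and 598, 621 and 609.7 CPM in the knockdown libraries, with a log2 change of 0.04. C/EBP factors drive many acute phase promoters in liver, and 8 of the 12 acute phase genes with a promoter in the RefSeq table held the letters TTGCNNAA in their 250 bases, against 9.01% of tested genes. The 8 were Saa1, Saa2, Saa3, Lcn2, Cp, Hpx, Mt2 and Steap4, and this list was picked out for the motif after the values had been seen. Saa1 and Saa2 are near copies that can share reads, and Saa3, Hpx and Steap4 overlapped between the groups. All 47 lists were searched for the motifs. The STAT element was in 2 of 18 STAT3 targets, against 7.19% of tested genes. The glucocorticoid response element was in 2 of 17 glucocorticoid targets, against 0.34%, and the NF-kappa-B site in 3 of 16 NF-kappa-B genes, against 0.5%.

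Targets and feedback inhibitors of STAT3 had a similar direction: 11 of 20 tested lay lower and 0 higher, with a median of -1.10 and of -1.27 without scrambled library 2, when 2 higher and 13 lower were called. Socs3, the inhibitor that STAT3 induces against its own receptor, stood at 4301, 2204 and 4320.3 CPM in the scrambled and 1281, 1382 and 1421 CPM in the knockdown libraries, beside 827 and 1190 CPM in the sham libraries. Stat3 itself stood at 599, 343 and 529.9 CPM in the scrambled and 229.97, 200.4 and 239.8 CPM in the knockdown libraries. Pim1, a kinase it induces, stood at 238, 88.8 and 247 CPM in the scrambled and 42.4, 54.8 and 41.1 CPM in the knockdown libraries. Scrambled library 2 was the lowest scrambled library in all 3 and above every knockdown library. The receptor subunits differed as well: Osmr, which binds oncostatin M, stood at 466, 344 and 339 CPM in the scrambled and 173, 138 and 171 CPM in the knockdown libraries. Lifr stood at 976, 402 and 1048 CPM in the scrambled and 232, 203 and 228 CPM in the knockdown libraries and Il6ra at 191, 80.0 and 218 CPM in the scrambled and 49.4, 42.9 and 52.4 CPM in the knockdown libraries. Lif, a ligand of that family, went the other way at 13.1, 16.2 and 9.32 CPM in the scrambled and 22.02, 37.7 and 21.999 CPM in the knockdown libraries. With all libraries none of these 7 passed (edgeR adjusted p from 0.0610 to 0.0728), and without scrambled library 2 Lif rose and the other 6 fell (adjusted p from 4.79e-07 to 0.00219). The full list of the IL-6 family and its receptors had 2 higher and 6 lower of 16, with a median of -0.07 and 2 higher and 4 lower called without scrambled library 2.

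Other inflammatory lists differed among themselves. Chemokines had 3 of 17 higher and 1 lower, with 3 higher and 2 lower called without scrambled library 2. The 1 that lay lower was Cxcl13, which attracts B cells, at 445, 258 and 667 CPM in the scrambled and 91.9, 90.5 and 66.7 CPM in the knockdown libraries, beside 11.6 and 17.4 CPM in the sham libraries. Its log2 change of -2.46 ± 0.34 did not pass (edgeR adjusted p = 0.0610; 2.13e-06 without scrambled library 2). Cxcl16, a membrane-bound chemokine, stood at 4.94, 17.7 and 3.27 CPM in the scrambled and 23.6, 25.4 and 20.2 CPM in the knockdown libraries. The NF-kappa-B list had 1 of 21 higher and 3 lower and a median of 0.02 (5 higher and 4 lower called without scrambled library 2). The subunit Rela stood at 146, 106 and 134 CPM in the scrambled and 93.1, 80.0 and 99.9 CPM in the knockdown libraries and Relb at 13.8, 19.4 and 8.44 CPM in the scrambled and 21.9, 22.7 and 24.6 CPM in the knockdown libraries, on opposite sides. Of 28 interferon-stimulated genes 10 lay higher and 0 lower (median 0.63; 0.80 without scrambled library 2, when 17 higher and 1 lower were called). Ifit1, a sensor of viral RNA, stood at 2.55, 5.16 and 5.73 CPM in the scrambled and 11.3, 12.7 and 10.1 CPM in the knockdown libraries. Igtp, a GTPase, stood at 7.99, 16.3 and 9.38 CPM in the scrambled and 20.7, 22.8 and 23.5 CPM in the knockdown libraries. Ddx58, which encodes RIG-I, stood at 18.8, 33.3 and 29.3 CPM in the scrambled and 42.3, 48.9 and 44.3 CPM in the knockdown libraries. Psmb9, a subunit of the immunoproteasome, stood at 2.74, 8.75 and 3.34 CPM in the scrambled and 11.7, 14.6 and 11.3 CPM in the knockdown libraries. It belongs to the list of MHC class I genes and antigen processing, in which 2 of 18 lay higher and 1 lower (median 0.32; 0.58 without scrambled library 2, when 10 higher and 2 lower were called). The lower gene was H2-T23, of MHC class I, at 184, 125 and 150 CPM in the scrambled and 104, 101 and 102 CPM in the knockdown libraries. Prostaglandin genes had 5 of 14 higher and 0 lower (6 higher and 0 lower called without scrambled library 2). The cyclooxygenase Ptgs1 stood at 6.93, 13.8 and 4.79 CPM in the scrambled and 22.2, 26.5 and 22.3 CPM in the knockdown libraries and the synthase Ptges at 31.5, 84.4 and 34.9 CPM in the scrambled and 96.8, 113 and 96.2 CPM in the knockdown libraries. None of the genes named in these 5 lists passed with all libraries (edgeR adjusted p from 0.0610 to 0.124), and all passed without scrambled library 2 (adjusted p from 2.13e-06 to 0.00275).

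Glucocorticoids, released in stress and wasting, act on stromal cells through the receptor Nr3c1. Of 21 tested targets 14 lay lower and 1 higher, with a median of -1.59 and of -1.84 without scrambled library 2, when 1 higher and 20 lower were called. The 1 higher gene was Nr3c1 itself, at 149, 151 and 132 CPM in the scrambled and 209, 181 and 205 CPM in the knockdown libraries. Hsd11b1, the enzyme that regenerates active glucocorticoid inside the cell, stood at 999.8, 426 and 880.4 CPM in the scrambled and 276, 243 and 273 CPM in the knockdown libraries, beside 213 and 204 CPM in the sham libraries. Gadd45g, a stress-induced growth inhibitor, stood at 577, 354 and 486 CPM in the scrambled and 243, 200.4 and 235 CPM in the knockdown libraries. Fkbp5, a chaperone of the receptor and among its most direct targets (named after its values were seen), stood at 545, 171 and 428 CPM in the scrambled and 124, 141 and 106 CPM in the knockdown libraries. Tsc22d3, which encodes the target GILZ (named likewise), stood at 1203, 518 and 1178 CPM in the scrambled and 825, 628 and 631 CPM in the knockdown libraries and overlapped, with a log2 change of -0.48. With all libraries none of the 5 passed (edgeR adjusted p from 0.0610 to 0.288), and without scrambled library 2 all 5 did (adjusted p from 1.00e-06 to 0.00702). For the list as a whole scrambled library 2 lay at 22.02% of the way from the knockdown mean to scrambled libraries 1 and 3.

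FOXO factors switch on autophagy and the ubiquitin ligases of muscle wasting when insulin signalling is low. Their list had 14 of 20 lower and 1 higher, a median of -1.12 and of -1.45 without scrambled library 2, when 1 higher and 18 lower were called. Bnip3, a mitophagy receptor, stood at 175, 28.3 and 147 CPM in the scrambled and 18.7, 14.0 and 14.6 CPM in the knockdown libraries. Map1lc3b, the LC3 of autophagosomes, stood at 485, 218 and 376 CPM in the scrambled and 156, 155 and 153 CPM in the knockdown libraries. Fbxo32, which encodes the ubiquitin ligase atrogin-1, stood at 73.0, 22.2 and 79.7 CPM in the scrambled and 18.2, 16.4 and 12.1 CPM in the knockdown libraries, beside 18.7 and 18.7 CPM in the sham libraries. Scrambled library 2 was close to the knockdown libraries in all 3, at 12.7% of the way to the other scrambled libraries for the list. None of the 3 passed with all libraries (edgeR adjusted p from 0.0622 to 0.0699), and all 3 did without scrambled library 2 (adjusted p from 1.84e-07 to 5.25e-06). Fbxo32 is best known in muscle fibres. The 14 tested of 16 fibre markers summed to 115, 166 and 367 CPM in the scrambled and 104, 127 and 121 CPM in the knockdown libraries, with 0 of 14 higher and 3 lower. Scrambled library 3 held the largest sum and scrambled library 1 a sum near those of the knockdown libraries. The part of fibre RNA in this list was not tested.

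The clock list had 8 of 18 lower and 2 higher, with a median of -1.08 and of -1.38 without scrambled library 2, when 2 higher and 15 lower were called. Per2, a repressor of the loop, stood at 148, 79.6 and 152 CPM in the scrambled and 29.4, 31.6 and 38.8 CPM in the knockdown libraries. Cry1 and Cry2, its partners, stood at 75.3, 27.1 and 45.9 CPM in the scrambled and 20.6, 15.01 and 19.5 CPM in the knockdown libraries, and at 487, 93.7 and 358 CPM in the scrambled and 72.6, 73.8 and 81.7 CPM in the knockdown libraries. Tef, an output factor, stood at 322, 84.7 and 280.3 CPM in the scrambled and 61.5, 60.9 and 62.9 CPM in the knockdown libraries. The 2 that lay higher were the activators Arntl, at 44.98, 60.2 and 31.3 CPM in the scrambled and 71.7, 67.3 and 73.6 CPM in the knockdown libraries, and Npas2, at 14.3, 45.5 and 21.7 CPM in the scrambled and 54.0, 53.6 and 71.4 CPM in the knockdown libraries. The repressors and activators named here stood on opposite sides, and the labels give no collection times. Immediate early genes, which respond within minutes to stimulation and to tissue digestion, had 13 of 25 lower and 0 higher (median -0.39; 0 higher and 13 lower called without scrambled library 2). Junb stood at 3585, 2042 and 3332 CPM in the scrambled and 1405, 1306 and 1459 CPM in the knockdown libraries and Ier3 at 300.04, 213 and 275 CPM in the scrambled and 119, 139 and 113 CPM in the knockdown libraries. With all libraries none of these 8 passed (edgeR adjusted p from 0.0610 to 0.103), and without scrambled library 2 all 8 did (adjusted p from 2.98e-07 to 9.05e-04).

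Lipid genes split by pathway. Of 17 tested genes of lipid uptake and storage 8 lay lower and 1 higher (median -1.17; -1.32 without scrambled library 2, when 1 higher and 10 lower were called). Pnpla2, the first lipase of stored triglyceride, stood at 479, 41.5 and 313 CPM in the scrambled and 33.1, 38.4 and 33.9 CPM in the knockdown libraries. Plin4, a coat protein of lipid droplets, stood at 20.1, 18.8 and 41.1 CPM in the scrambled and 2.41, 6.08 and 4.50 CPM in the knockdown libraries. Apoe, a lipoprotein component, stood at 649, 425 and 466 CPM in the scrambled and 179, 268 and 224 CPM in the knockdown libraries, and Mgll, which cleaves the last fatty acid from glycerol, was the 1 higher at 31.2, 51.1 and 41.8 CPM in the scrambled and 74.9, 76.0 and 79.5 CPM in the knockdown libraries. Scrambled library 2 was with the knockdown libraries for Pnpla2 and with the other scrambled libraries for Plin4. Markers of mature adipocytes were scarce, with the 4 tested of 9 summing to 49.7, 25.9 and 56.1 CPM in the scrambled and 18.0, 24.8 and 19.6 CPM in the knockdown libraries. Lep was at 0 throughout and Adipoq stood at 0.627, 0.507 and 0.882 CPM in the scrambled and 0, 0 and 0.306 CPM in the knockdown libraries. Of 19 adipogenic transcription factors 6 lay lower and 2 higher (median -0.35; 4 higher and 7 lower called without scrambled library 2). Among them were Cebpb (856, 268 and 563 CPM in the scrambled and 185, 155 and 173 CPM in the knockdown libraries), Cebpd (2305, 1207 and 2339 CPM in the scrambled and 917, 704 and 847 CPM in the knockdown libraries) and Klf15 (269, 36.3 and 216 CPM in the scrambled and 25.1, 25.8 and 20.2 CPM in the knockdown libraries), early inducers of the adipocyte programme that cytokines and glucocorticoids also induce. None of Pnpla2, Plin4, Apoe, Mgll, Cebpb, Cebpd and Klf15 passed with all libraries (edgeR adjusted p from 0.0610 to 0.0728), and all did without scrambled library 2 (adjusted p from 1.75e-07 to 0.00114).

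Cholesterol genes stood on the other side. Of 23 tested, 20 lay higher in the knockdown libraries and 1 lower, a median of 1.53 and of 1.67 without scrambled library 2, when 16 higher and 0 lower were called. Srebf2, the factor that switches on the pathway when sterol is low, stood at 91.4, 118 and 84.1 CPM in the scrambled and 197, 278 and 186 CPM in the knockdown libraries. Hmgcs1, an early enzyme of the pathway, stood at 23.4, 28.8 and 13.4 CPM in the scrambled and 53.7, 112 and 62.0 CPM in the knockdown libraries. Knockdown library 2 was the highest in both, and the sham libraries differed among themselves too, with Srebf2 at 273 and 353 CPM and Sqle at 32.3 and 84.3 CPM. The groups lay apart even so. Tm7sf2, a sterol reductase (named as the single lower gene), stood at 4.43, 5.28 and 6.67 CPM in the scrambled and 4.11, 3.74 and 4.11 CPM in the knockdown libraries. Without knockdown library 2 the median of the list was 0.98. None passed with all libraries (edgeR adjusted p of at least 0.0610). Fatty acid synthesis was mixed, with 5 of 16 higher and 2 lower (5 higher and 2 lower called without scrambled library 2). Scd2, a desaturase, stood at 73.7, 126 and 131 CPM in the scrambled and 216, 477 and 202 CPM in the knockdown libraries and Acacb, which makes the malonyl-CoA that restrains fatty acid oxidation, at 91.3, 20.96 and 144 CPM in the scrambled and 12.9, 10.6 and 12.2 CPM in the knockdown libraries. Scd2 passed neither with all libraries nor without scrambled library 2 (edgeR adjusted p = 0.0821 and 0.0839). Acacb passed only without that library (edgeR adjusted p = 0.0680 with it and 1.14e-06 without).

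Collagen levels were mostly higher in the knockdown libraries. Of 19 tested collagens 12 lay higher and 0 lower in the knockdown libraries, a median of 1.43, and of 2.14 without scrambled library 2, when 14 higher and 1 lower were called. Col6a2, a chain of the microfibrillar collagen VI around cells, stood at 287, 1501 and 315 CPM in the scrambled and 2795, 3762 and 3067 CPM in the knockdown libraries, beside 5258 and 3231 CPM in the sham libraries. Col5a3 and Col5a2, chains of the fibril-nucleating collagen V, stood at 164, 855 and 206 CPM in the scrambled and 1694, 1979.9 and 1836 CPM in the knockdown libraries, and at 419.8, 1170 and 529.7 CPM in the scrambled and 1704, 1961 and 1671 CPM in the knockdown libraries. Col18a1, the source of endostatin, stood at 69.0, 117 and 44.1 CPM in the scrambled and 229, 288 and 222 CPM in the knockdown libraries. In each, scrambled library 2 lay between the other scrambled libraries and the knockdown libraries. The fibrillar collagens Col1a1 and Col3a1 (named after their values were seen) varied widely among scrambled libraries, with Col3a1 at 990.05, 10123 and 974 CPM in the scrambled and 13717, 19386 and 14230 CPM in the knockdown libraries. Col1a1 stood at 1174, 6238 and 557 CPM in the scrambled and 6384, 9010.3 and 6109 CPM in the knockdown libraries, where the groups overlapped. The basement membrane chains Col4a1 and Col4a2 did not follow, at log2 changes of -0.48 and -0.26. None passed with all libraries (edgeR adjusted p of at least 0.0610).

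Most processing enzymes had positive log2 changes, 18 of 21 tested, and Lox a negative one. Lox, the oxidase that starts collagen crosslinks, lay lower, at 2274, 655 and 2456 CPM in the scrambled and 313, 266 and 290.3 CPM in the knockdown libraries, beside 118 and 154 CPM in the sham libraries (log2 -2.63 ± 0.44, edgeR adjusted p = 0.0610; 1.85e-07 without scrambled library 2). Its relative Loxl2 went the other way, at 73.9, 229.5 and 69.9 CPM in the scrambled and 456, 446 and 431 CPM in the knockdown libraries, as did the hydroxylase subunit P4ha2, at 28.3, 93.9 and 39.4 CPM in the scrambled and 133, 138 and 125 CPM in the knockdown libraries. Of 21 tested enzymes of collagen processing 7 lay higher and 1, Lox, lower (median 0.60; 1.01 without scrambled library 2, when 16 higher and 2 lower were called). Among 32 genes of elastic fibres, proteoglycans and other matrix 13 lay higher and 3 lower (median 0.68; 1.01 without scrambled library 2, when 20 higher and 4 lower were called). Fbn1, the backbone of microfibrils, stood at 802, 2534 and 869.7 CPM in the scrambled and 4531, 5322 and 5194 CPM in the knockdown libraries. Vcan, the proteoglycan versican, stood at 152, 315 and 146 CPM in the scrambled and 456, 552 and 496 CPM in the knockdown libraries. The thrombospondins Thbs1 (2326, 524 and 2252 CPM in the scrambled and 387, 340.1 and 344 CPM in the knockdown libraries) and Thbs2 (2356, 908 and 2687 CPM in the scrambled and 707, 620.4 and 661 CPM in the knockdown libraries) lay lower. Ctgf, a matricellular target of TGF-beta and of YAP, stood at 1911, 971 and 1879.5 CPM in the scrambled and 521, 306 and 401 CPM in the knockdown libraries. The TGF-beta list had 0 of 23 higher and 4 lower and a median of 0.08, with 1 higher and 5 lower called without scrambled library 2. Has2, a hyaluronan synthase, stood at 7.21, 33.1 and 4.79 CPM in the scrambled and 70.5, 105 and 63.8 CPM in the knockdown libraries, in a list of hyaluronan genes with 3 of 11 higher and 0 lower (5 higher and 0 lower called without scrambled library 2). Of 24 matrix proteases and inhibitors 1 lay higher and 6 lower (median -0.31; -0.11 without scrambled library 2, when 5 higher and 11 lower were called). Ctsk, the collagen-degrading cathepsin K, stood at 591, 372 and 540.2 CPM in the scrambled and 233, 266 and 207 CPM in the knockdown libraries. Mmp14, a membrane metalloproteinase, stood at 1813, 1010.5 and 2015 CPM in the scrambled and 695, 659 and 694 CPM in the knockdown libraries. Cst3, a cathepsin inhibitor, stood at 2629, 1132 and 2149.7 CPM in the scrambled and 889, 700.2 and 742 CPM in the knockdown libraries. As with Lox, none of these passed with all libraries (edgeR adjusted p from 0.0610 to 0.0907), and all did without scrambled library 2 (adjusted p from 8.15e-07 to 1.87e-04).

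Genes that mark the Dpp4+ Pi16+ subset of progenitors, described as a less committed state, mostly had their higher values in the knockdown libraries. Of 18 tested, 13 lay higher and 0 lower (median 1.59; 2.45 without scrambled library 2, when 16 higher and 0 lower were called). Igfbp5, a binding protein for insulin-like growth factors, stood at 353, 921 and 656 CPM in the scrambled and 2312, 2927 and 2327 CPM in the knockdown libraries, opposite in direction to Igfbp3. The list of the insulin-like growth factor system had 4 of 16 higher and 4 lower (5 higher and 6 lower called without scrambled library 2). Limch1, an activator of myosin, stood at 49.4, 51.2 and 36.1 CPM in the scrambled and 77.5, 87.1 and 100.3 CPM in the knockdown libraries. Smpd3, a sphingomyelinase, stood at 25.6, 84.3 and 22.7 CPM in the scrambled and 174, 235 and 167 CPM in the knockdown libraries. Wnt2, a Wnt ligand, stood at 3.02, 7.61 and 2.204 CPM in the scrambled and 19.9, 24.7 and 13.2 CPM in the knockdown libraries. Dpp4 itself stood at 133, 287 and 149 CPM in the scrambled and 408, 346 and 397 CPM in the knockdown libraries. Pi16 stood at 295, 2305 and 189 CPM in the scrambled and 2102, 2565 and 2391 CPM in the knockdown libraries with overlapping groups (both named after their values were seen). The Cxcl14+ Col15a1+ subset was divided, with 5 of 18 higher and 6 lower (6 higher and 6 lower called without scrambled library 2). Col15a1 was among the higher and Apod, an apolipoprotein of stromal cells, among the lower at 13972, 5463 and 16485 CPM in the scrambled and 1905, 1400 and 1819.6 CPM in the knockdown libraries. The list of progenitor identity was divided too, with 5 of 19 higher and 5 lower (9 higher and 5 lower called without scrambled library 2). Cd34 stood at 213, 1179 and 241 CPM in the scrambled and 1914, 1925 and 1805 CPM in the knockdown libraries and Prrx1 at 90.6, 205 and 132 CPM in the scrambled and 256, 234 and 261 CPM in the knockdown libraries, among the higher. Twist2, at 25.2, 24.9 and 29.1 CPM in the scrambled and 16.8, 20.3 and 18.5 CPM in the knockdown libraries, was among the lower. Pdgfra, with values that nearly touched, was among the lower too. Tcf21 (named as the largest fall of the list) had a log2 change of -1.62. Of the genes whose CPM values are given here, none passed with all libraries (edgeR adjusted p from 0.0610 to 0.247). All did without scrambled library 2 (edgeR adjusted p from 2.10e-07 to 0.0148).

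Growth factor lists held genes in both directions. Bmp4 (574, 192 and 373 CPM in the scrambled and 119.8, 114 and 109 CPM in the knockdown libraries) and Inhbb, a subunit of activin B (67.0, 97.1 and 129.9 CPM in the scrambled and 40.7, 25.7 and 42.9 CPM in the knockdown libraries), lay lower, and Bmp5 (36.3, 52.6 and 33.1 CPM in the scrambled and 98.4, 88.6 and 82.2 CPM in the knockdown libraries) and Bmp7 (6.58, 15.9 and 6.36 CPM in the scrambled and 26.1, 37.3 and 29.5 CPM in the knockdown libraries) higher. Over the 26 tested genes of that list 8 lay higher and 6 lower, with 8 higher and 8 lower called without scrambled library 2. Wnt5a (38.9, 47.8 and 38.3 CPM in the scrambled and 67.4, 81.7 and 79.0 CPM in the knockdown libraries) lay higher and Wnt11 (236, 125 and 231 CPM in the scrambled and 85.5, 71.7 and 94.5 CPM in the knockdown libraries) lower, and the Wnt and Hedgehog list had 7 of 28 higher and 5 lower (8 higher and 6 lower called without scrambled library 2). Pthlh, which encodes the parathyroid hormone-related protein linked to fat wasting in cachexia, stood at 3.57, 4.82 and 1.20 CPM in the scrambled and 10.7, 16.9 and 12.3 CPM in the knockdown libraries, beside 46.6 and 32.1 CPM in the sham libraries. Inhba, a subunit of activin A, stood at 1.41, 3.09 and 1.13 CPM in the scrambled and 5.39, 7.65 and 5.16 CPM in the knockdown libraries. The list of secreted factors acting on muscle had 7 of 24 higher and 4 lower (median 0.41; 12 higher and 6 lower called without scrambled library 2). None of the 8 genes given here passed with all libraries (edgeR adjusted p from 0.0610 to 0.0728), and all 8 did without scrambled library 2.

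Ribosomal protein genes showed a small and even difference. Of 27 tested, 25 lay lower and 0 higher, with a median of -0.52 and of -0.51 without scrambled library 2, when 0 higher and 24 lower were called. Log2 changes ran only from -0.68 to -0.17. Rps18, of the small subunit, stood at 614, 454 and 495 CPM in the scrambled and 340.5, 312 and 326 CPM in the knockdown libraries. Rpl8, of the large subunit, stood at 977, 703 and 800 CPM in the scrambled and 543, 483 and 530.4 CPM in the knockdown libraries. Scrambled library 2 lay nearer to the knockdown mean for 1 of the 27 genes, against 19 of 20 in the FOXO list and 17 of 19 collagens. Genes that build ribosomes went in the same direction, with 13 of 24 lower and 0 higher (median -0.59; 1 higher and 17 lower called without scrambled library 2). Among them were Gnl3, a nucleolar GTPase, at 138, 45.7 and 80.6 CPM in the scrambled and 32.9, 23.7 and 32.0 CPM in the knockdown libraries, the polymerase I subunit Polr1b at 39.3, 24.9 and 36.6 CPM in the scrambled and 17.0, 21.4 and 19.7 CPM in the knockdown libraries and Myc at 654, 380.2 and 655 CPM in the scrambled and 300.2, 329.8 and 303 CPM in the knockdown libraries. None of the 2 lists' members passed with all libraries (edgeR adjusted p of at least 0.0715). The share of a ribosomal protein gene depends on the scaling of the libraries: with upper-quartile factors in place of TMM, the median of all members moved from 0.02 to 0.10, and that of the list to -0.44.

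**Figure D5:**
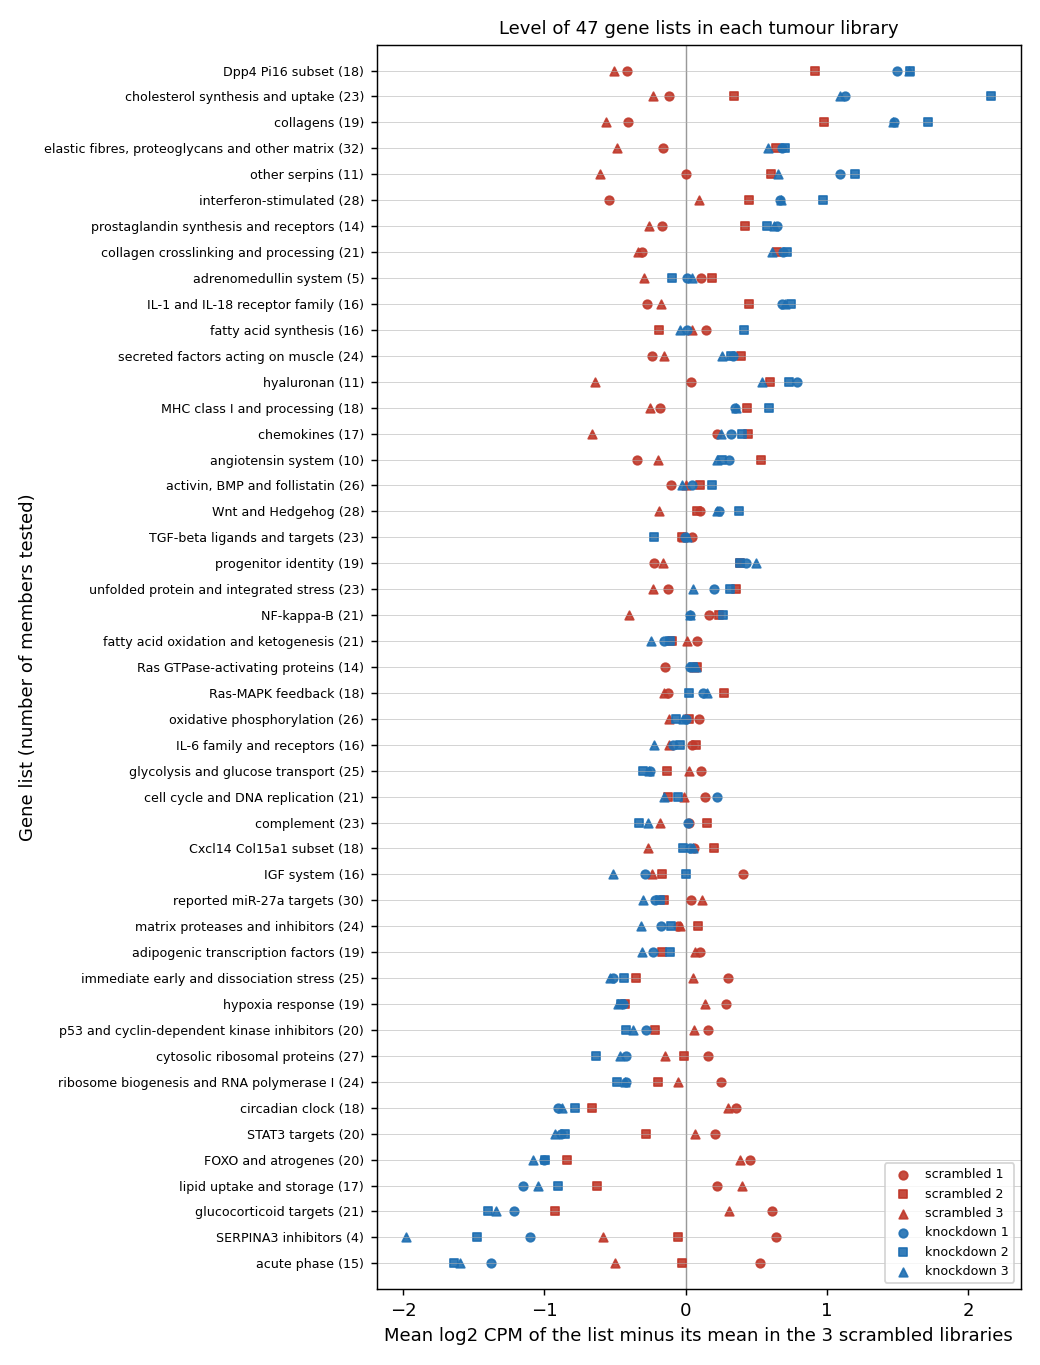
Mean log2 CPM of the tested members of each of 47 gene lists (vertical axis, number tested in brackets) minus its mean over the 3 scrambled libraries (horizontal axis), for scrambled (red) and knockdown (blue) libraries, ordered by median log2 fold change. For acute phase and ribosomal protein genes scrambled library 2 (red square) lies with the other scrambled libraries, for FOXO, clock and hypoxia genes with the knockdown libraries, and for collagens between the groups, nearer to the knockdown libraries.

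Targets of miR-27a are described because the seed is the sequence that the knockdown concerns, although the inhibitor was not in the sorted cells. A site is the letters ACTGTGA, which pair with the seed, or ACTGTGAA with a further A, in the annotated 3′ end of a transcript. Of 12294 tested members with an annotated 3′ end, 793 held the 8-base site, with a median log2 change of 0.02 against 0.02 for all 12294. Of the 793, 17.8% lay higher and 14.5% lower, against 17.9% and 17.1% of all 12294. Their 3′ ends were longer, with a median of 2586 bases against 1219. None of the 7 called genes held a 7-base or 8-base site. Among 30 tested genes reported as targets of miR-27a, 0 lay higher and 8 lower, with a median of -0.27. Without scrambled library 2 the median was -0.36, and 3 higher and 13 lower were called. The 8-base site was in 19 of the 30. The site of Runx1, the reported target with the smallest p, is shown with its flanks, with the 8 bases in capitals; it begins at base 99 of 4189 in the 3′ end.
Runx1: cccggagggaaACTGTGAAtgcttctgatt
Runx1, a transcription factor of blood and mesenchyme, stood at 22.5, 32.4 and 21.5 CPM in the scrambled and 13.04, 11.4 and 9.97 CPM in the knockdown libraries, with a log2 change of -1.16 ± 0.23 (edgeR adjusted p = 0.0622; 0.00113 without scrambled library 2). Scrambled library 2 held the highest value. Rxra, a nuclear receptor partner that also holds the site, stood at 188, 119.6 and 223 CPM in the scrambled and 97.2, 91.0 and 103 CPM in the knockdown libraries, and Spry2, a brake on Ras signalling that holds it too (named after its values were seen), overlapped at 137, 194 and 155 CPM in the scrambled and 165, 171 and 193 CPM in the knockdown libraries. Cyp1b1, an oestrogen-metabolising enzyme, stood at 167, 152 and 333 CPM in the scrambled and 85.2, 104 and 74.0 CPM in the knockdown libraries. Btg1, an antiproliferative factor, stood at 320.3, 166 and 305 CPM in the scrambled and 117, 140.5 and 110.1 CPM in the knockdown libraries, and these 2 lay lower without the site. None passed with all libraries (edgeR adjusted p from 0.0622 to 0.602).

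Other lists are given mainly by their counts. Hypoxia genes had 1 of 19 higher and 4 lower (median -0.43; -0.61 without scrambled library 2, when 3 higher and 10 lower were called), with Adm and Bnip3 among the lower. Genes of p53 and cyclin-dependent kinase inhibitors had 1 of 20 higher and 7 lower (median -0.47; 2 higher and 10 lower called without scrambled library 2). Among the lower were Gadd45g and Gadd45b (372, 166 and 276 CPM in the scrambled and 95.0, 123 and 109 CPM in the knockdown libraries). Cell cycle genes had 3 of 21 higher and 5 lower (4 higher and 7 lower called without scrambled library 2). The replication helicase gene Mcm7 stood at 81.1, 27.9 and 104 CPM in the scrambled and 19.6, 24.7 and 17.0 CPM in the knockdown libraries and Pcna at 64.3, 59.97 and 57.0 CPM in the scrambled and 41.8, 41.1 and 39.3 CPM in the knockdown libraries. Unfolded protein genes had 3 of 23 higher and 6 lower (11 higher and 7 lower called without scrambled library 2). Glycolysis genes had 4 of 25 higher and 3 lower (8 higher and 9 lower called without scrambled library 2). Oxidative phosphorylation genes had 5 of 26 higher and 6 lower (4 higher and 5 lower called without scrambled library 2). Genes of fatty acid oxidation had 3 of 21 higher and 3 lower (5 higher and 5 lower called without scrambled library 2). Asns, which makes asparagine under amino acid shortage, stood at 38.7, 18.7 and 24.2 CPM in the scrambled and 10.7, 11.8 and 7.78 CPM in the knockdown libraries. In the list of Ras-MAPK feedback, with 2 of 18 higher and 4 lower (7 higher and 5 lower called without scrambled library 2), the receptor Fgfr1 stood at 1721, 869 and 1777 CPM in the scrambled and 738, 749 and 770.4 CPM in the knockdown libraries and the phosphatase Dusp4 at 6.31, 1.82 and 9.70 CPM in the scrambled and 1.08, 0.0558 and 0.481 CPM in the knockdown libraries, opposite to Fgf1. None of the 6 genes with values here passed with all libraries (edgeR adjusted p from 0.0685 to 0.0753), and all 6 did without scrambled library 2 (adjusted p from 2.41e-06 to 0.00239).

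Markers of other cell types differed widely in level. Summed over the tested markers of a type, they ran from 0.0558 CPM for lymphocytes to 1569.9 CPM for tenocytes in the tumour libraries. The sums for Schwann cells, muscle stem cells, mature adipocytes and red blood cells lay apart between the groups. Macrophage markers summed to 52.2, 30.6 and 30.4 CPM in the scrambled and 57.9, 19.2 and 37.4 CPM in the knockdown libraries, with 0 of 10 tested higher and 1 lower and none at 0. The 4 tested of 11 neutrophil markers summed to at most 13.7 CPM in a tumour library. Of 12 lymphocyte markers only 1 was tested, Ptprc, the CD45 gene given above, at 2.51 CPM or less. The endothelial sums ran from 466 to 596 CPM in the scrambled and from 575 to 672 CPM in the knockdown libraries (1 of 12 higher, 0 lower). Yet 8 of the 12 endothelial markers had negative log2 changes (median -0.37; -0.56 without scrambled library 2, when 1 higher and 5 lower were called). The sums of pericytes and smooth muscle ran from 612 to 817 and from 656 to 726 CPM. The sums of Schwann cell markers lay apart, at 386, 507 and 347 CPM against 555, 565 and 565 CPM (3 of 10 higher, 0 lower), with higher sums in the knockdown libraries. The list itself was split, with 5 positive and 5 negative log2 changes (median 0.01; -0.19 without scrambled library 2, when 2 higher and 1 lower were called). Muscle stem cell markers, 5 of 10 tested, summed to 512, 231 and 366 CPM in the scrambled and 179, 198 and 167 CPM in the knockdown libraries (0 of 5 higher, 1 lower), with the highest sums in scrambled libraries 1 and 3 and scrambled library 2 above every knockdown library. That list was split as well, with 2 positive and 3 negative log2 changes and a median of -0.06. The median was -0.19 without scrambled library 2, -0.67 without scrambled library 1 and 0.89 without scrambled library 3. Red blood cell markers summed to 6.93, 4.52 and 18.0 CPM in the scrambled and 3.34, 1.17 and 3.94 CPM in the knockdown libraries, with 1 member tested, which lay lower, and the 4 globin genes at 0 in every library. The sums for mature adipocytes, given above, were lower in every knockdown library. The 6 tested of 10 epithelial markers summed to at most 39.4 CPM. Their part in the results above was not tested.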

How the data were processed

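RNA from sorted progenitors was measured in 3 knockdown, 3 scrambled and 2 sham libraries, and the values used are the whole-number read counts per gene symbol that the authors deposited. The submitters' processing notes name bcl2fastq 2.20, Bowtie, STAR, DESeq2 1.36.0, R 4.2.1 and the build mm10, without the role of each; the counting tool is not given in the sources used here, nor are strand setting and annotation. Counts were scaled by TMM and tested in R 4.3.3 with edgeR 4.0.16 (limma 3.58.1): filterByExpr with a minimum count of 10 and a minimum total of 15, 3 group means over the 8 libraries, the robust quasi-likelihood test (two-sided), Benjamini-Hochberg adjustment over all genes tested and a threshold of 0.05. The standard error is the absolute log2 change over the square root of F. The labels call the libraries biological replicates; p-values measure the spread between these libraries. The members and lists were chosen with earlier results of these data known. Named were the called genes, the 12 largest rises and falls with groups apart and a mean of at least 5 CPM, up to 4 members per list, taken by p, all tested members of lists with under 12, and the sort genes. Symbols of clones and predicted genes were left out of the rises and falls. Genes marked in the text, and Arntl, Npas2, Nr3c1, Tm7sf2, Steap4, Col4a1, Col4a2 and Adipoq, were chosen after their values were seen. The labels do not pair the libraries, so the numbers were not taken as pairs. Deviations from the group means had r of 0.0677, 0.00475 and 0.175 between same-numbered scrambled and knockdown libraries. Between libraries of unlike number r ran from -0.135 to 0.058, and so few values cannot decide whether the numbers are pairs. Alternatives were other scalings, filters and fits, DESeq2 1.42.0, limma-voom, a replicate block, and leaving out each library; fits without scrambled library 2 of the tumour libraries alone and by DESeq2 were chosen after seeing the data. Gene coordinates are from GENCODE M21 (GRCm38), in which 23350 symbols (95.6%) were found, and promoters and microRNAs from RefSeq (GRCm38.p6).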

Additional observations from a re-analysis of the deposited data

How the results depend on the processing

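The counts of calls depended on the fit. The 1 higher and 6 lower calls became 0 and 0 in the 6 tumour libraries alone (smallest adjusted p 0.121, with 3617 members at an unadjusted p under 0.05), 0 and 1 with upper-quartile factors, 0 and 1 with edgeR's legacy method, 0 and 1 with the filter of 10 reads in 3 of 6 libraries, and 0 and 5 with limma-voom. Without a filter on low counts 10 were lower. DESeq2 called 782 higher and 1505 lower. With a replicate block on the 6 tumour libraries 0 were higher and 0 lower (smallest adjusted p 0.0771, 3619 at an unadjusted p under 0.05); the numbers are not known to pair the libraries. Leaving out 1 library gave 0 to 3672 higher and 0 to 3525 lower calls, the highest without scrambled library 2. Without it, the 6 tumour libraries alone gave 3568 higher and 3482 lower, and DESeq2 3496 and 3427. The cause was not tested. Of the 47 list medians 13 changed sign in some alternative, and 0 of the 17 beyond 0.5 either way did. Of 163 genes examined 3 changed sign: leaving out 1 library, the log2 change ran from -0.26 to 0.66 for C3, from -0.21 to 0.44 for Steap4 and from -0.86 to 0.55 for Serpina3h. Total counts of 15647436 to 28340450 reads leave genes with few reads, such as Il18r1, Saa1 and C4a, with the least precision.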
